A study of Mus musculus with 15 samples.

Results

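The 8 genes described here encode AP-1 subunits: the Jun proteins Jun, Junb and Jund, the Fos proteins Fos, Fosb, Fosl1 and Fosl2, and the related Atf3. They were taken by name from the 35675 genes quantified in all 15 libraries, and 8 of 8 passed the filter on low counts that left 19331 genes for testing. RNA was sequenced from 3 lines of mouse embryonic fibroblasts (MEFs), each from a separate embryo of Tg:Pax7-nGFP/C57BL6;DBA2 mice, and the same 3 lines were used in 5 conditions with 1 library each. The first condition was untransfected MEFs in iMPC medium. The other 4 received 4 transfections of synthetic MyoD-mRNA in the same medium with B18R, an interferon-binding protein: without further compounds (+MyoD), or together with F/R/C, a mixture of forskolin (which increases cAMP), RepSox (an inhibitor of TGF-β receptor signalling) and CHIR99210 (an inhibitor of GSK3), written +MyoD+F/R/C. In the last 2 conditions the mixture was joined by the JNK inhibitor SP600125 (SP) or by the JAK inhibitor CP690550 (CP). All conditions are labelled day 10, but the deposited tables of the untransfected MEFs are named as day 0. If the names are right, time in culture and transfection cannot be told apart in any comparison with MEFs. B18R was not given to the untransfected MEFs, so its effect and that of the transfected mRNA cannot be told apart, and neither can the effects of forskolin, RepSox and CHIR99210, which were given together.

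AP-1 is a dimeric transcription factor of the basic leucine zipper (bZIP) class. Fos proteins bind DNA only as partners of a Jun protein, whereas Jun proteins can also pair with each other and with ATF proteins. Many of these genes are immediate early genes, whose transcripts appear soon after a growth factor, cAMP or stress signal and decay quickly. JNK phosphorylates Jun, and Jun with ATF2 acts on the promoter of Jun itself, while cAMP acts on the Fos promoter through CREB. Fosl1 is a typical product of growing fibroblasts with active ERK signalling. In myoblasts, Jun and Fos are known to oppose the muscle regulators of the MyoD family. The data are transcript levels, and neither protein amount nor phosphorylation was measured.

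Library totals ran from 29393872 to 41885769 estimated counts. Myod1 was at 0.113 to 0.556 CPM (counts scaled to the library total) in the untransfected MEFs and at 787 to 3845 CPM in the transfected libraries, where transcripts of the gene and the synthetic mRNA cannot be told apart. Fibroblast markers summed to 7325 to 9987 CPM in the MEFs and skeletal muscle markers to 68.3 to 92.5 CPM. The muscle markers summed to 1987 to 2496 CPM with MyoD and to 6997 to 10963 CPM with F/R/C, and the fibroblast markers to 28313 to 58289 and 17308 to 26893 CPM. Macrophage markers (14.4 to 34.6 CPM in all) and endothelial markers (4.10 to 22.3 CPM) were low in every library. Muscle stem cell markers (10 genes) had 4 called higher and 0 lower with MyoD, beside 22.8 and 18.0% of all genes. On adding F/R/C, 4 were higher and 2 lower, beside 10.9 and 8.39% of all genes. They summed to 627 to 650 CPM in MEFs, 933 to 1427 with MyoD and 610 to 772 with F/R/C. Of these markers, Pax7 and Myf5 were nearly undetected in each +MyoD library. Epithelial markers summed to 17.2 to 96.5 CPM. Each library is a whole culture, so fewer cells of a type and less RNA per cell cannot be told apart.

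The sequence upstream of 4 members is printed because these genes were all higher with F/R/C than in MEFs and because their RefSeq start sites lay within 30 bases of the annotated gene start. Each line gives the 250 bases before the start on the strand of the gene (RefSeq, GRCm38.p6), from chr12:85473640-85473889 (+) for Fos, chr7:19310046-19310295 (−) for Fosb, chr4:95052223-95052472 (−) for Jun and chr8:84978749-84978998 (−) for Junb. Capitals mark TGACG, the core of the cAMP response element, on either strand, and in Jun the variant TGACATCA, the kind of site at which Jun and ATF2 act.
Fos: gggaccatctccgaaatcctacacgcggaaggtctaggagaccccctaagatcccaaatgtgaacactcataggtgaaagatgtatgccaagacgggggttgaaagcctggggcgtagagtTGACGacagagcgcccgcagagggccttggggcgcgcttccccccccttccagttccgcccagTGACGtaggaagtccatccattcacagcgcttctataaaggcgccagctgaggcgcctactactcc
Fosb: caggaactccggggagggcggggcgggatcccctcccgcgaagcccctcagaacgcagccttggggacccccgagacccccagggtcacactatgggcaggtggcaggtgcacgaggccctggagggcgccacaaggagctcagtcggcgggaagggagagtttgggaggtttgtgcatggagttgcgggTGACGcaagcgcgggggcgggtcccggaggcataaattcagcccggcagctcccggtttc
Jun: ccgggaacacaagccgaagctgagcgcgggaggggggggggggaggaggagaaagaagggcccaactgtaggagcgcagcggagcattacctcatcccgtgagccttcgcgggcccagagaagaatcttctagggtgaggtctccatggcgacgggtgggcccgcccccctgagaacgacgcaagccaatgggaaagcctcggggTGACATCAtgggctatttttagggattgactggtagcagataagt
Junb: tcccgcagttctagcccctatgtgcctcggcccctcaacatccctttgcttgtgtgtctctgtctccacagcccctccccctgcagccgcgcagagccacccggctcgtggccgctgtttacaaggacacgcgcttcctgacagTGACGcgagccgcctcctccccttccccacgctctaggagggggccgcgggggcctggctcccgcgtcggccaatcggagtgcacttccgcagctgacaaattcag
TGACG lay at −129 and −66 in Fos, −60 in Fosb, −106 in Junb and −7 in Atf3, which was not called higher with F/R/C than in MEFs, counted from −1 next to the start, and TGACATCA lay at −45 in Jun. No upstream window of the 7 members with an entry held the full element TGACGTCA or the AP-1 site TGACTCA on either strand. Of 32851 mouse promoter windows of the same length, 17.8% held TGACG, 2.93% TGACATCA, 1.55% TGACGTCA and 4.46% TGACTCA, so TGACG is common and its presence is a description only. The entry of Jund starts 1210 bases, that of Fosl2 671 bases and that of Atf3 34706 bases from the annotated gene start, and those windows are not printed.

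Levels of different genes were compared in TPM, which are corrected for transcript length and for the library total. In MEFs, Fosl1 had the highest level of the 8 genes (134 ± 24.5 TPM, SD, n = 3), and its libraries did not overlap with those of the next, Jun (78.0 ± 8.64). Jun, Fosl2 (74.0 ± 7.45), Junb (68.5 ± 26.9) and Jund (35.8 ± 5.43) each overlapped with its neighbour in this order, and Atf3 (8.38 ± 4.94), Fosb (7.07 ± 3.06) and Fos (6.88 ± 0.675) came last, below Jund and overlapping with each other. These TPM are sums over the transcripts of a gene. By these sums, Fos went from the last place to the first with F/R/C, and Fosl1 from the first to the seventh. Fos had the highest mean (308 ± 190.1 TPM), followed by Junb (248 ± 149.8), Jun (188 ± 95.2), Jund (122 ± 45.3), Fosl2 (76.8 ± 14.8), Fosb (73.5 ± 41.5) and Fosl1 (58.3 ± 19.0), and each overlapped with its neighbour in the order. Atf3 (10.3 ± 1.37 TPM) lay below Fosl1 without overlap, and it was last in each of the 4 transfected conditions. The first place of Fos with F/R/C depended on shorter transcripts not annotated as coding. Its coding transcript had 113, 365 and 161 TPM in lines 1, 2 and 3, below Junb in each (149, 420 and 174).

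With MyoD alone the order of the means was Junb (156 ± 81.3 TPM), Jund (108 ± 55.3), Fosl2 (107 ± 25.1), Fos (83.2 ± 62.3), Jun (79.1 ± 15.9), Fosl1 (39.1 ± 12.5), Fosb (21.1 ± 17.7) and Atf3 (5.27 ± 0.791). Only Jun and Fosl1 among these neighbours did not overlap. Under either inhibitor the means followed the same order as under the mixture alone, led by Fos (196 ± 92.9 TPM with SP and 212 ± 111 with CP). The coding Fos transcript alone had 86.8, 222 and 124 TPM with SP, below Junb in each line (86.9, 252 and 129). With CP it had 106, 209 and 150 TPM, below Junb in lines 1 and 2 only (Junb 114, 235 and 122).

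The sum over the 8 genes was 412 ± 48.6 TPM in MEFs, 598 ± 230 with MyoD, 1085 ± 547 with F/R/C, 734 ± 289 when SP was added and 780 ± 279 when CP was added. Lines 1, 2 and 3 held 681, 1707 and 866 TPM with F/R/C, so line 2 stood apart there. The Fosl1 and Fosl2 transcripts made up 50.4 ± 0.532% of the summed TPM in MEFs, 26.9 ± 10.2% with MyoD and 13.5 ± 3.62% with F/R/C. The Fos and Fosb transcripts made up 3.37 ± 0.251%, 15.5 ± 10.7% and 34.0 ± 5.34% in the same order. The make-up within the Fos family thus differed between MEFs and F/R/C with no overlap between the libraries. These shares count all annotated transcripts, also those not annotated as coding. With F/R/C the coding Fos transcript had 113, 365 and 161 of 157, 522 and 245 TPM in lines 1, 2 and 3. The 3 Jun genes together held 44.2 ± 0.776% in MEFs, 56.7 ± 4.73% with MyoD and 51.4 ± 2.37% with F/R/C, and between 43.6 and 61.6% in all 15 libraries.

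**Figure D1:**
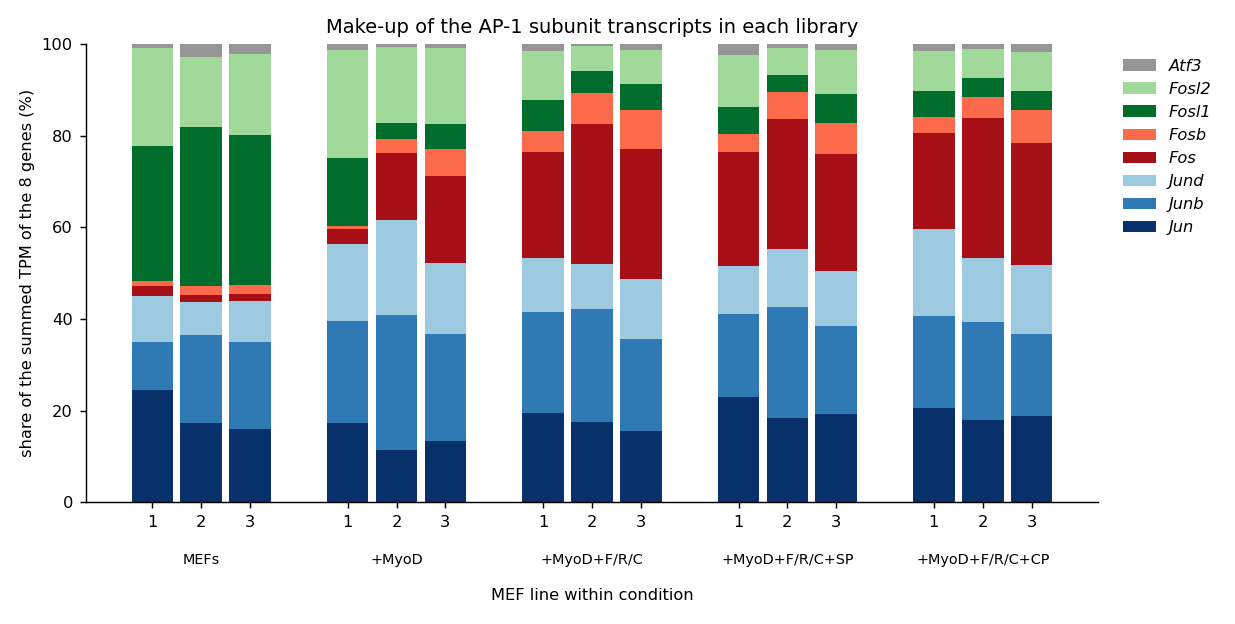
Share of each AP-1 subunit (%, y axis) in the summed TPM of the 8 genes, as 1 stacked bar per library, with the 3 MEF lines (x axis) grouped by condition. All annotated transcripts are counted, also those not annotated as coding. Fosl1 and Fosl2 together go from 50.4% of the sum in MEFs to 13.5% with F/R/C, and Fos and Fosb together from 3.37 to 34.0%.

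With the inhibitors the make-up was close to that with F/R/C alone. Fos and Fosb held 31.8 ± 2.82% with SP and 31.2 ± 5.92% with CP, and Fosl1 and Fosl2 held 14.3 ± 4.13% and 12.5 ± 2.04%. In the +MyoD condition the lines disagreed: Fos and Fosb held 3.81% in line 1, near the MEF value, but 17.6% in line 2 and 25.0% in line 3. When shares were taken from estimated counts, with no correction for length, the long Fosl2 transcript weighed more (40.8% in MEFs and 20.0% with F/R/C) and Fos less (18.0% with F/R/C).

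Fos (ENSMUSG00000021250.13, chr12:85473890-85477273, + strand, GRCm38), the prototype Fos protein, had 6.53, 6.51 and 7.67 CPM in MEF lines 1, 2 and 3. It had 12.8, 127 and 108 CPM with MyoD and 148, 487 and 204 CPM with F/R/C. The MEF libraries lay below all others, and line 1 with MyoD lay far below lines 2 and 3. With SP it had 118, 290.3 and 161 CPM and with CP 131, 283 and 184 CPM, in each line less than with F/R/C alone.

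Fosb (ENSMUSG00000003545.3, chr7:19302696-19310051, − strand), which is induced like Fos and also makes a shortened, more stable protein, had 6.62, 23.4 and 21.5 CPM in MEFs, 4.92, 56.2 and 81.6 CPM with MyoD and 70.0, 256 and 151 CPM with F/R/C. Line 1 was the lowest in each condition. It had 47.1, 138 and 99.6 CPM with SP and 44.4, 110.0 and 105 CPM with CP. The 9 libraries with F/R/C lay above the 3 MEF libraries in both Fos and Fosb.

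Fosl1 (Fra-1, ENSMUSG00000024912.6, chr19:5447547-5455946, + strand) was highest in MEFs. It had 119, 175 and 174 CPM in MEFs, 45.8, 16.0 and 20.6 CPM with MyoD, 36.7, 71.4 and 26.6 CPM with F/R/C, 31.8, 30.2 and 39.0 CPM with SP and 21.9, 23.6 and 17.9 CPM with CP. The lowest MEF library was above each of the 12 transfected libraries. Ccdc85b overlaps Fosl1 on the other strand, with a mean of 2474 estimated counts per library, and reads in the overlap could be assigned to either gene, since the strand setting of the quantification is not given in the sources used here.

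Fosl2 (Fra-2, ENSMUSG00000029135.10, chr5:32135801-32157842, + strand) kept to a narrower range. It had 322, 293 and 348 CPM in MEFs, 303, 523 and 392 CPM with MyoD, 265, 335 and 214 CPM with F/R/C, 225, 247 and 252 CPM with SP and 189, 253 and 204 CPM with CP. The MEF libraries overlapped with the +MyoD and the F/R/C libraries.

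Jun (c-Jun, ENSMUSG00000052684.4, chr4:95049034-95052222, − strand), the substrate after which JNK is named, had 174, 157 and 154 CPM in MEFs and 113, 189 and 157 CPM with MyoD, which overlapped. It had 244, 555 and 233 CPM with F/R/C, all above the 6 libraries without F/R/C. With SP it had 208, 365 and 239 CPM and with CP 221, 358 and 228 CPM, also above those 6 libraries. Junos, on the other strand, overlaps Jun with a mean of 64.0 counts.

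Junb (ENSMUSG00000052837.6, chr8:84974484-84978718, − strand), an immediate early gene that can restrain Jun, had 40.2, 96.3 and 99.5 CPM in MEFs, 81.0, 278 and 151 CPM with MyoD and 152, 434 and 167 CPM with F/R/C. The MEF and F/R/C libraries did not overlap. It had 106, 265 and 131 CPM with SP and 119.8, 237 and 121 CPM with CP. Prdx2 overlaps Junb on the other strand with a mean of 9851 counts, and how reads in the overlap were assigned was not tested. Jund (ENSMUSG00000071076.6, chr8:70698949-70700616, + strand), the most evenly expressed Jun gene across tissues, had 36.4, 32.6 and 45.5 CPM in MEFs, 58.3, 187 and 94.7 CPM with MyoD, 77.1, 165 and 103 CPM with F/R/C, 55.1, 133 and 76.2 CPM with SP and 107, 143 and 92.4 CPM with CP. The 12 transfected libraries all lay above the 3 MEF libraries. Gm11175 overlaps Jund on the other strand with a mean of 147 counts.

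Atf3 (ENSMUSG00000026628.13, chr1:191170296-191218039, − strand), a stress-induced partner of Jun, was low throughout. It had 3.23, 15.3 and 12.8 CPM in MEFs, 4.76, 7.01 and 5.67 CPM with MyoD, 11.7, 9.53 and 11.8 CPM with F/R/C, 9.07, 9.09 and 9.32 CPM with SP and 9.58, 12.4 and 12.7 CPM with CP. MEF line 1 was the lowest of the 15 libraries and MEF line 2 the highest.

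**Figure D2:**
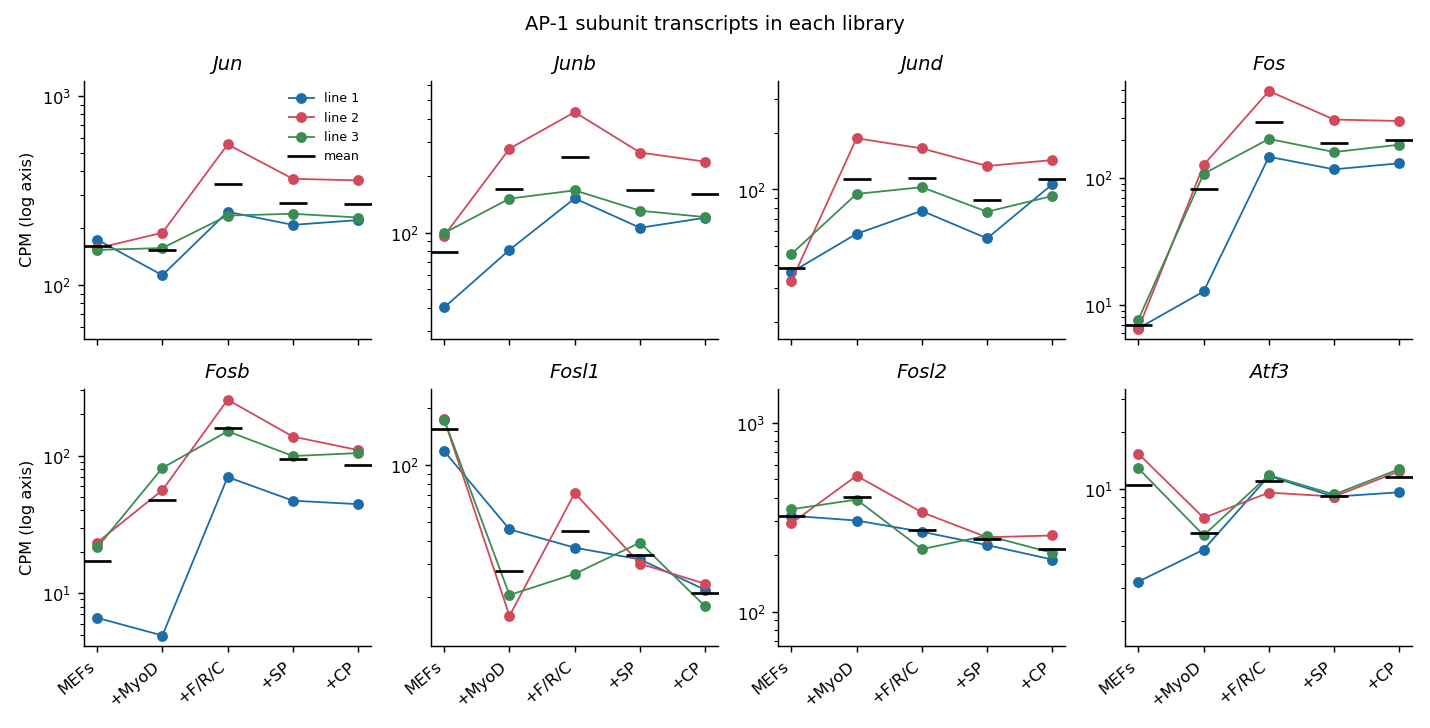
CPM of each AP-1 subunit (log y axis) in the 5 conditions (x axis), with 1 point per library, lines joining the libraries of the same MEF line and a bar at the mean of 3. Fos goes from 6.51 to 7.67 CPM in MEFs to 148 to 487 CPM with F/R/C, and Fosl1 from at least 119 CPM in MEFs to at most 71.4 CPM after transfection.

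The comparison of +MyoD with MEFs asks what the transfected MyoD-mRNA does without the compounds. Fos and Jund were higher and Fosl1 was lower, and the other 5 subunits did not pass the test (edgeR's quasi-likelihood test on all 15 libraries, Benjamini-Hochberg adjusted p of at most 0.05 over all genes tested and a log2 fold change over 0.5 in size). Of all genes tested, 22.8% were called higher and 18.0% lower, so 2 of 8 higher and 1 of 8 lower are shares near those of all genes. Fos was 12.0-fold higher (log2 fold change 3.58, SE 0.68, adjusted p = 0.00046). Jund was 2.96-fold higher (1.57, SE 0.40, adjusted p = 0.00438) and Fosl1 5.68-fold lower (−2.51, SE 0.38, adjusted p = 6.39e-05). These 3 kept their calls under 21 of 21 alternatives.

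Junb (1.11, SE 0.52, adjusted p = 0.0946) and Fosb (1.47, SE 0.75, adjusted p = 0.126) did not pass in that fit. They passed when the MEF line was added as a block, since the same lines stand in both conditions (Junb 1.01, adjusted p = 0.00274, and Fosb 1.22, adjusted p = 0.0252, where 22.5% of all genes were called higher and 18.6% lower). They also passed without +MyoD line 1 (Junb 1.44, adjusted p = 0.0305, and Fosb 1.9999, adjusted p = 0.00913), as did Fosl2 (0.51, adjusted p = 0.034, against 0.34 and 0.169 with all libraries). Jun had a log2 fold change of −0.077 (95% interval −0.74 to 0.59). Atf3 was at −0.85 (adjusted p = 0.0889), and without MEF line 1, the library lowest in Atf3, at −1.28, adjusted p = 0.000363.

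The comparison of +MyoD+F/R/C with +MyoD asks what the 3 compounds add. Jun was higher and Fosl2 lower, 1 of 8 in each direction against 10.9% of all genes called higher and 8.39% called lower. Jun was 2.25-fold higher (log2 fold change 1.17, SE 0.32, adjusted p = 0.0151), and Fosl2 was 1.50-fold lower (−0.58, SE 0.19, adjusted p = 0.0415). Jun no longer passed without F/R/C line 2 (0.64, adjusted p = 0.109), without +MyoD line 1 (0.99, adjusted p = 0.0551) or with only the 6 libraries compared (1.18, adjusted p = 0.0699). Fosl2 lost its call under 14 of 21 alternatives, among them length-scaled counts (−0.56, adjusted p = 0.0663), at log2 fold changes between −0.61 and −0.36.

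Jun, Junb, Fos, Fosb and Atf3 were higher with F/R/C in 3 of 3 lines, a pattern whose share over all genes was not counted. Fos (1.76, SE 0.62, adjusted p = 0.0551) and Fosb (1.74, SE 0.74, adjusted p = 0.115) did not pass the test. Both passed with the line as a block (1.87, adjusted p = 0.00803, and 2.03, adjusted p = 0.00289, where 11.6% of all genes were called higher and 8.86% lower). Fos also passed by DESeq2 (1.77, adjusted p = 0.0464). Within lines 1, 2 and 3 the log2 ratio was 3.52, 1.94 and 0.91 for Fos and 3.82, 2.18 and 0.89 for Fosb. The ratio was highest in line 1, the line with the lowest Fos and Fosb after MyoD alone. Jund had a log2 fold change of 0.022 (95% interval −0.80 to 0.85), Junb of 0.56 (−0.53 to 1.65), Fosl1 of 0.71 (−0.064 to 1.48) and Atf3 of 0.92 (0.099 to 1.74). Atf3 was called with only the 6 libraries compared (0.94, adjusted p = 0.0491) and without MEF line 1 (0.92, adjusted p = 0.00525), and Fosl1 without +MyoD line 1 (1.30, adjusted p = 0.0102).

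The comparison of +MyoD+F/R/C with MEFs spans both steps and gave the most calls of the 3. Jun, Junb, Jund, Fos and Fosb were higher and Fosl1 was lower: 5 of 8 against 26.6% of all genes called higher, and 1 of 8 against 21.6% called lower (26.4 and 22.1% with the line as a block). Fos was 40.5-fold higher (log2 fold change 5.34, SE 0.73, adjusted p = 1.89e-05) and Fosb 9.25-fold higher (3.21, SE 0.79, adjusted p = 0.00297). Among the Jun genes, Junb was 3.19-fold higher (1.67, SE 0.52, adjusted p = 0.0138), Jund 3.01-fold higher (1.59, SE 0.40, adjusted p = 0.00331) and Jun 2.13-fold higher (1.09, SE 0.32, adjusted p = 0.00876). Fosl1 was 3.48-fold lower (−1.80, SE 0.37, adjusted p = 0.000724). Fosl2 (−0.24, 95% interval −0.65 to 0.17) and Atf3 (0.074, −0.74 to 0.88) did not pass. The median over the 8 subunits was a log2 fold change of 1.34, beside 0.19 over all genes tested. Fos, Fosb, Jund and Fosl1 passed under 21 of 21 alternatives. Jun did not pass without F/R/C line 2 (0.56, adjusted p = 0.0899), and Junb did not pass without F/R/C line 2 (1.02, adjusted p = 0.113) or without MEF line 1 (1.35, adjusted p = 0.0631).

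**Figure D3:**
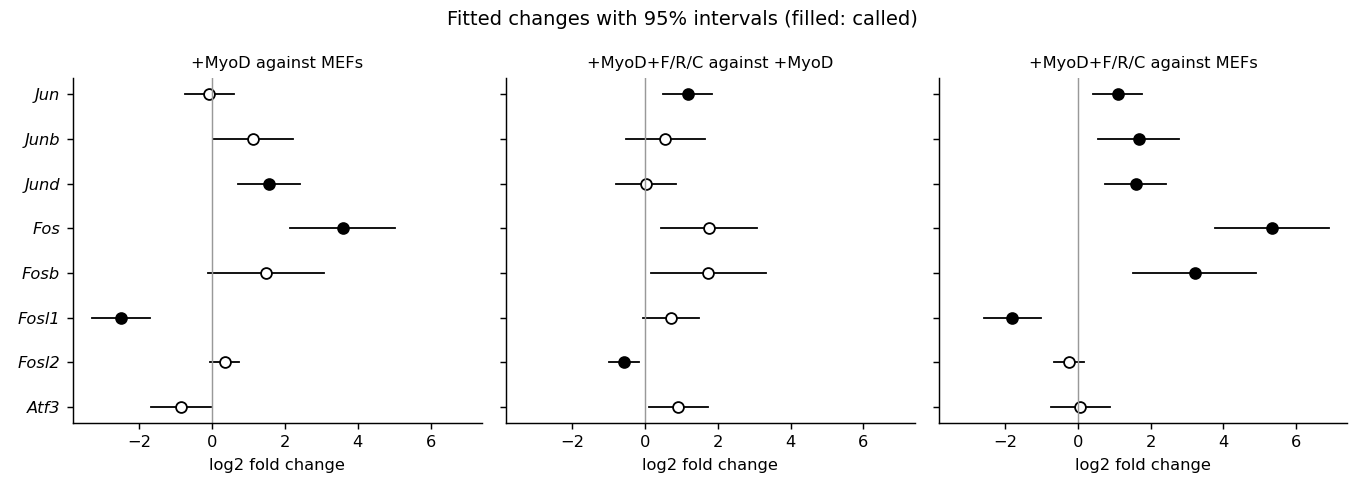
Log2 fold change (x axis) of each AP-1 subunit (y axis) in the 3 comparisons among MEFs, +MyoD and +MyoD+F/R/C, with 95% intervals from the fit of 15 libraries. Filled points passed the test: 3 with MyoD, 2 on adding F/R/C and 6 of 8 between F/R/C and MEFs, where Fos is farthest to the right at 5.34.

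SP600125 was added to ask whether JNK inhibition changes the outcome of the conversion. No subunit passed the test, and neither did any of the 19331 genes (0% called in either direction by edgeR, 1280 genes at an unadjusted p under 0.05, and 55 genes called by DESeq2). The log2 fold changes of the 8 subunits were all below 0, with a median of −0.40 beside a median of about 0 over all genes. Fosb had the lowest (−0.74, 95% interval −2.29 to 0.80), followed by Junb (−0.58, −1.67 to 0.51), Fos (−0.56, −1.84 to 0.72), Fosl1 (−0.42, −1.18 to 0.35), Jund (−0.38, −1.21 to 0.44), Jun (−0.35, −1.01 to 0.32), Atf3 (−0.26, −1.07 to 0.55) and Fosl2 (−0.17, −0.58 to 0.24). F/R/C line 2 lay above lines 1 and 3 in 7 of the 8 subunits, Atf3 being the exception. Without that library Jun, Junb, Fos, Fosl1 and Fosl2 changed sign (0.18, 0.071, 0.11, 0.090 and 0.015), while Fosb was at −0.22, Jund at −0.028 and Atf3 at −0.36.

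Within lines, Fosb was lower with SP than with F/R/C alone by log2 ratios of −0.57, −0.89 and −0.60 in lines 1, 2 and 3, Junb by −0.52, −0.71 and −0.36, Fos by −0.33, −0.75 and −0.34, and Jund by −0.48, −0.31 and −0.43. Together with Atf3 (−0.36, −0.068 and −0.34), 5 of 8 subunits were lower in 3 of 3 lines, a pattern that 18.4% of all genes tested showed. Jun itself had ratios of −0.23, −0.60 and 0.032, Fosl1 of −0.21, −1.24 and 0.55 and Fosl2 of −0.23, −0.44 and 0.24, each above 0 in line 3. In a fit of the 9 libraries with F/R/C with the line as a block, chosen after seeing the data, Fosb (−0.70, adjusted p = 0.0183) and Junb (−0.54, adjusted p = 0.0296) were called lower and the other 6 were not (Fos −0.49, adjusted p = 0.0575, and Jund −0.41, adjusted p = 0.16), with 1.14% of 18460 genes called higher and 1.16% lower. In the fit of all 15 libraries with the line as a block, no subunit and 0% of all genes were called.

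CP690550 was given as an inhibitor of another kinase family. No subunit passed the test by edgeR, beside 0% of all genes called higher and 0.0362% called lower (0.0517 and 0.140% with the line as a block, again with no subunit called). Fosl1 had the lowest log2 fold change (−1.08, 95% interval −1.86 to −0.31, adjusted p = 0.402), and its CP libraries lay below its F/R/C libraries. How many of all genes had such libraries without overlap was not counted. Fosb was at −0.88 (−2.43 to 0.67), Junb at −0.66 (−1.75 to 0.43), Fos at −0.49 (−1.77 to 0.79), Jun at −0.36 (−1.02 to 0.31), Fosl2 at −0.33 (−0.74 to 0.075), Jund at −0.012 (−0.84 to 0.81) and Atf3 at 0.069 (−0.74 to 0.88). Within lines, 6 of 8 subunits (Jun, Junb, Fos, Fosb, Fosl1 and Fosl2) were lower with CP in 3 of 3 lines, beside 20.0% of all genes.

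The log2 ratios of CP to F/R/C in lines 1, 2 and 3 were −0.74, −1.59 and −0.57 for Fosl1, −0.65, −1.22 and −0.53 for Fosb and −0.34, −0.87 and −0.47 for Junb, and 0.47, −0.21 and −0.15 for Jund, which was higher in line 1 and lower in lines 2 and 3. In the fit of the 9 libraries with the line as a block, Fosb (−0.81, adjusted p = 0.00534) and Junb (−0.57, adjusted p = 0.0157) were called lower, with 1.29% of genes called higher and 1.90% lower. Fosl1 did not pass there (−1.03, adjusted p = 0.0549). Without F/R/C line 2, in the fit with no block, Jun (0.17), Jund (0.34) and Fos (0.18) were above 0. Junb went from −0.66 to −0.0026 and Atf3 was at −0.024, while Fosb (−0.36), Fosl1 (−0.58) and Fosl2 (−0.15) were below 0.

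**Figure D4:**
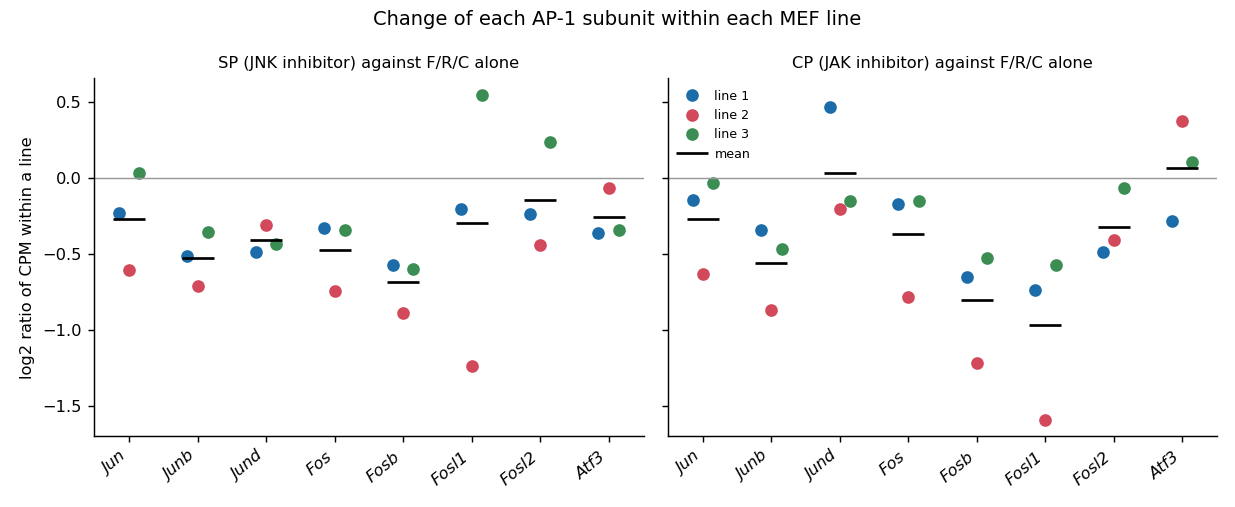
Log2 ratio of CPM (y axis) of each AP-1 subunit (x axis) with SP or CP against F/R/C alone, computed within each of the 3 MEF lines. Fosb and Junb lie below 0 in each line in both panels, and the same 3 F/R/C libraries serve as the reference in both.

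Because both inhibitors were set against the same 3 F/R/C libraries, they were also compared with each other directly. No subunit passed by edgeR (0.197% of all genes were called higher with SP than with CP and 0% lower, 0.186 and 0% with the line as a block). For Jun, the log2 fold change of SP against CP was 0.0088 (95% interval −0.66 to 0.68), for Junb 0.072 (−1.01 to 1.16), for Jund −0.37 (−1.20 to 0.46), for Fos −0.072 (−1.35 to 1.21) and for Fosb 0.14 (−1.40 to 1.68). Fosl2 was at 0.17 (−0.24 to 0.57) and Atf3 at −0.33 (−1.14 to 0.48). The Atf3 libraries were lower with SP in 3 of 3 lines, without overlap. How many of all genes had SP and CP libraries without overlap was not counted. The intervals hold differences of over 0.5 in both directions for Jun, Junb, Fos and Fosb and in 1 direction for Jund, Fosl2 and Atf3. The test thus does not show that the inhibitors act alike. Fosl1 had 31.8, 30.2 and 39.0 CPM with SP and 21.9, 23.6 and 17.9 CPM with CP, without overlap, at a log2 fold change of 0.67 (−0.11 to 1.44, adjusted p = 1 from edgeR).

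Immediate early genes respond to handling of cultures, and other lists that could move with the subunits were measured. The 23 other immediate early genes summed to 1682, 3347 and 2061 CPM with F/R/C in lines 1, 2 and 3, to 1912, 4435 and 2069 CPM with MyoD, and to 2273, 2928 and 2706 CPM in MEFs. Line 2 was the highest in each, and also with SP (1666, 2573 and 2075 CPM) and with CP (1786, 2773 and 1872 CPM). It was likewise the highest for Jun, Junb, Jund, Fos and Fosl2 with MyoD and with F/R/C. Heat shock and chaperone genes summed to 4262, 4125 and 4077 CPM with F/R/C, and to 7116 to 9534 CPM in MEFs. In these sums line 2 did not stand apart with F/R/C. It was highest with CP (4461, 6105 and 4322 CPM) and lowest with MyoD (5116, 3536 and 4047) and with SP (4560, 4302 and 4674). Of the 13 genes in this list, 2 were called higher and 6 lower with MyoD, 1 higher and 0 lower on adding F/R/C, and 3 higher and 6 lower with F/R/C than in MEFs. The shares of all genes in these comparisons were 22.8 and 18.0%, 10.9 and 8.39%, and 26.6 and 21.6%. The share of mitochondrial counts was 1.31 to 1.80% in the 6 libraries without F/R/C and 2.52 to 5.06% in the 9 with it. The part of these differences in the results above was not tested.

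The wider immediate early class held calls in both directions. Of its 23 genes, 5 were higher and 3 lower for +MyoD against MEFs, 3 were higher and 6 lower on adding F/R/C, and 8 were higher and 9 lower with F/R/C than in MEFs, with median log2 fold changes of 0.12, −0.16 and 0.19. Over all genes tested, 22.8% were called higher and 18.0% lower in the first of these comparisons, 10.9 and 8.39% in the second and 26.6 and 21.6% in the third. The counts with MyoD alone are near those shares. Sik1, a kinase gene induced by cAMP, was higher at each step (19.1 ± 1.12 CPM in MEFs, 70.5 ± 28.1 with MyoD and 173 ± 29.3 with F/R/C, SD, n = 3, adjusted p = 1.51e-05 and adjusted p = 0.0011 for the steps from edgeR). Nr4a3, an orphan nuclear receptor gene, was higher with MyoD (12.4 ± 5.77 against 1.93 ± 0.411 CPM, adjusted p = 2.1e-05). Myc, a growth regulator, was lower with MyoD (41.5 ± 14.7 against 190.1 ± 62.9 CPM, adjusted p = 1.07e-05). Klf2 was lower on adding F/R/C (4.99 ± 2.86 against 35.9 ± 19.1 CPM, adjusted p = 0.000208), and Klf6 (120.5 ± 1.54 against 384 ± 46.5 CPM, adjusted p = 1.13e-06) and Srf, whose product drives many of these genes (65.4 ± 4.74 against 168 ± 22.2 CPM, adjusted p = 1.98e-05), were lower with F/R/C than in MEFs.

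Among 24 other bZIP genes, which encode further partners or relatives of AP-1, 23 were tested (Batf2 was below the filter). With MyoD 6 were higher and 8 lower than in MEFs, on adding F/R/C 2 were higher and 3 lower, and with F/R/C 8 were higher and 10 lower than in MEFs, beside the same shares of all genes (22.8 and 18.0%, 10.9 and 8.39%, 26.6 and 21.6%). Maf was higher with MyoD (24.0 ± 13.7 against 3.25 ± 1.30 CPM, adjusted p = 1.95e-05). Cebpd was higher with MyoD (75.5 ± 44.4 against 8.33 ± 0.948 CPM, adjusted p = 1.71e-05). Atf6, a sensor of stress in the endoplasmic reticulum, was lower (66.4 ± 4.74 against 146 ± 31.0 CPM, adjusted p = 1.69e-05). On adding F/R/C, Nfe2l2, the regulator of the antioxidant response, was higher (244 ± 17.6 against 153 ± 22.0 CPM, adjusted p = 0.000666) and Nfe2l1 lower (335 ± 26.6 against 546 ± 106 CPM, adjusted p = 0.0027).

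The kinases and scaffolds that lead to JNK were measured as 23 genes. Of these, 5 were higher and 2 lower for +MyoD against MEFs, 4 higher and 1 lower on adding F/R/C, and 10 higher and 4 lower with F/R/C than in MEFs. The shares of all genes, in the same order, were 22.8 and 18.0%, 10.9 and 8.39%, and 26.6 and 21.6%, so 5 of 23 higher with MyoD is near the share of all genes. Map2k4, which encodes the JNK kinase MKK4, was lower with MyoD (78.7 ± 13.5 against 165 ± 28.5 CPM, adjusted p = 4.78e-05) and with F/R/C than in MEFs (80.6 ± 6.21 against 165 ± 28.5 CPM, adjusted p = 4.92e-05). The scaffold gene Mapk8ip1 (JIP1) was higher at each step (10.4 ± 1.85 CPM in MEFs, 20.4 ± 2.47 with MyoD and 36.2 ± 4.81 with F/R/C, adjusted p = 0.000454 and adjusted p = 0.00401). Its relative Mapk8ip2 was higher with F/R/C than in MEFs (6.71 ± 5.64 against 0.303 ± 0.198 CPM, adjusted p = 8.34e-05). The upstream kinase gene Map3k12 was higher with MyoD (62.2 ± 5.90 against 26.9 ± 5.55 CPM, adjusted p = 2.9e-05), and Map3k9 was higher on adding F/R/C (5.81 ± 0.882 against 1.58 ± 0.449 CPM, adjusted p = 0.00024).

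Dusp phosphatase genes, the Gadd45 genes and Gstp1 were listed together as regulators of JNK (10 genes). Of these, 2 were higher and 2 lower with MyoD, and 3 higher and 0 lower on adding F/R/C. With F/R/C against MEFs, 4 were higher and 3 lower. These counts are to be read against the shares of all genes given for the JNK kinases. Dusp2 was higher on adding F/R/C (20.2 ± 1.70 against 2.99 ± 2.08 CPM, adjusted p = 0.000114). Dusp10 was lower with MyoD (13.0 ± 1.88 against 22.5 ± 3.39 CPM, adjusted p = 0.000866) and higher on adding F/R/C (28.1 ± 2.49 against 13.0 ± 1.88 CPM, adjusted p = 0.000195). Dusp1, itself an immediate early gene, was higher on adding F/R/C (155 ± 62.3 against 86.8 ± 22.3 CPM, adjusted p = 0.0487). Dusp8 was higher with MyoD (12.3 ± 6.90 against 5.52 ± 0.723 CPM, adjusted p = 0.011), and Dusp4 was lower with F/R/C than in MEFs (53.2 ± 5.15 against 165 ± 32.2 CPM, adjusted p = 0.0025).

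Genes commonly listed as AP-1 targets (20 genes) changed in both directions: 10 were higher and 3 lower for +MyoD against MEFs, 2 higher and 10 lower on adding F/R/C, and 10 higher and 7 lower with F/R/C than in MEFs, with median log2 fold changes of 0.76, −0.96 and 0.48. Among all genes tested, the shares called higher and lower were 22.8 and 18.0%, 10.9 and 8.39%, and 26.6 and 21.6%. The summed level was 5689 to 6518 CPM in MEFs, 10600 to 14612 CPM with MyoD and 3745 to 4337 CPM with F/R/C. Spp1 (osteopontin) made up much of it with MyoD, at 6624 ± 1971 CPM against 375 ± 112 in MEFs and 1414 ± 206 with F/R/C. The growth factor gene Hbegf was lower on adding F/R/C (12.6 ± 1.90 against 74.9 ± 26.4 CPM, adjusted p = 1.6e-05). Plaur, the urokinase receptor gene, was lower with MyoD (60.0 ± 32.6 against 448 ± 144 CPM, adjusted p = 3.78e-06) and with F/R/C than in MEFs (19.6 ± 2.57 against 448 ± 144 CPM, adjusted p = 8.1e-08). The integrin gene Itga5 was lower on adding F/R/C (235 ± 18.2 against 1072 ± 394 CPM, adjusted p = 2.3e-05), and the cell cycle inhibitor gene Cdkn2a was higher with MyoD than in MEFs (262 ± 9.44 against 26.7 ± 8.41 CPM, adjusted p = 2.18e-08).

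Feedback genes of the ERK pathway (12 genes) had 2 higher and 3 lower with MyoD, 1 higher and 2 lower on adding F/R/C, and 2 higher and 2 lower with F/R/C than in MEFs, to be read against the shares of all genes given for the JNK kinases. Dusp5, a nuclear ERK phosphatase gene, was lower with F/R/C than in MEFs (24.5 ± 3.68 against 227 ± 60.4 CPM, adjusted p = 4.1e-06), and so was the transcription factor gene Etv4 (27.4 ± 4.56 against 128 ± 8.24 CPM, adjusted p = 1.1e-07). Spry1 was higher with MyoD (90.1 ± 48.8 against 20.9 ± 3.29 CPM, adjusted p = 3.39e-05), Etv1 was higher with F/R/C than in MEFs (77.7 ± 14.3 against 9.11 ± 4.27 CPM, adjusted p = 1.4e-05), and Phlda1 was higher on adding F/R/C (225 ± 46.8 against 115 ± 23.2 CPM, adjusted p = 0.0109). Proliferation genes (14) were all lower with MyoD than in MEFs, beside 18.0% of all genes, and 12 were higher on adding F/R/C, beside 10.9%. By edgeR on 15 libraries, 0 members of these lists were called in the 3 comparisons among the libraries with F/R/C.

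**Figure D5:**
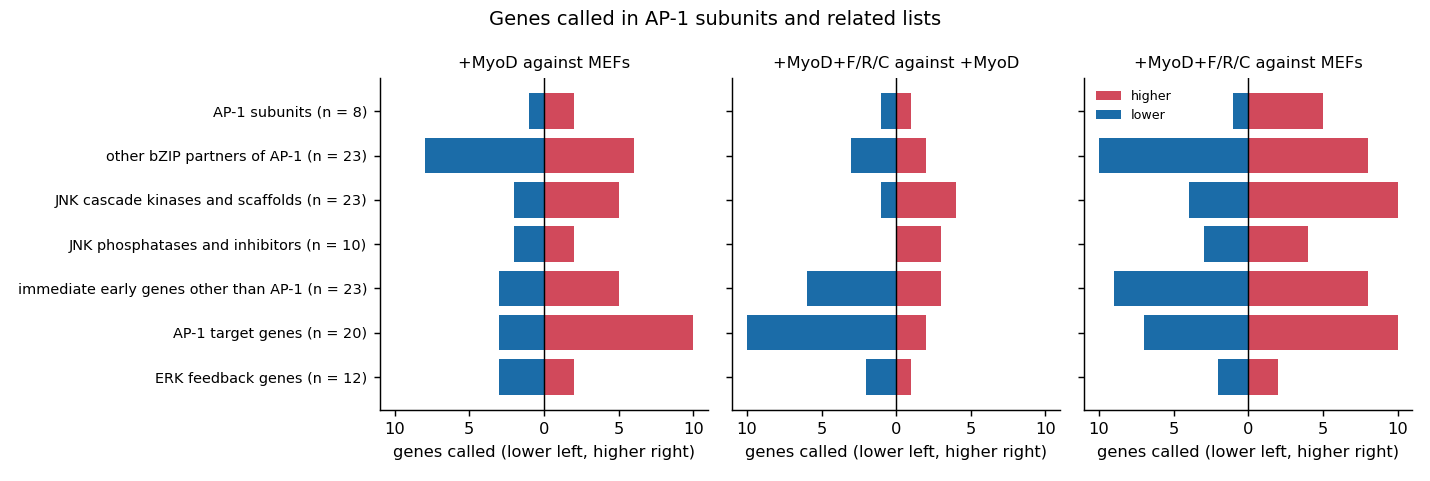
Number of genes called higher and lower (x axis) in the AP-1 subunits and in 6 related lists (y axis) in the 3 comparisons among MEFs, +MyoD and +MyoD+F/R/C. With F/R/C against MEFs each list holds genes called in both directions, and of the AP-1 subunits 5 were higher and 1 lower.

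The gene values above are sums over the annotated transcripts. Jun and Jund have 1 transcript each, and the main coding Fos transcript (ENSMUST00000021674.6) held 86.8 ± 5.86% of the Fos counts in MEFs and 88.9 ± 1.32% with F/R/C. The main transcript held at least 85.2% of the Fosl1 counts and at least 96.4% of the Fosl2 counts in each library. In TPM, short transcripts weighed more in Fosl1. Its main transcript had 43.2, 11.8 and 17.4 of 53.2, 29.7 and 34.4 TPM with MyoD in lines 1, 2 and 3. With F/R/C it had 33.4, 65.9 and 23.9 of 45.4, 80.0 and 49.3 TPM. In MEFs it had 105.4, 145.2 and 144.8 of 105.6, 148.9 and 147.3 TPM. Fosb was divided differently. The transcript ENSMUST00000003640.3 held 71.0 ± 9.57% of the Fosb counts in MEFs and 36.0 ± 5.39% with F/R/C, ENSMUST00000208326.1, also coding, 5.93 ± 10.3% and 29.7 ± 11.2%, and ENSMUST00000208230.1, annotated as a retained intron, 19.2 ± 7.51% and 31.2 ± 4.46%. With SP, the first of these held 56.4 ± 10.9%, and its 3 libraries (46.5 to 68.1%) lay above the F/R/C libraries (30.0 to 40.5%). With MyoD alone, the same transcript ran from 3.65 to 73.7% over the 3 lines, so its estimated share varied widely within 1 condition. Transcripts of 1 gene share sequence and reads are divided among them by estimate, so the shares are a description with no test.

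Over the 15 libraries the levels of Fos and Fosb were most alike among the pairs of subunits (Pearson r of log2 CPM 0.89), followed by Junb and Jund (0.88) and Jund and Fos (0.86). Fosl1 was inversely related to Fos (−0.74) and Jund (−0.72). After the mean of each condition was subtracted, which leaves the differences between lines, r was 0.90 for Fos and Fosb, 0.87 for Junb and Jund, 0.85 for Jund and Fos and 0.83 for Jun and Jund. Fosl2 also varied with Jun (0.80) and Fos (0.80), while Fosl1 was between −0.35 and 0.16 with each of the other 7. These are descriptions over 15 libraries, and the points share lines and conditions.

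Among 14318 genes compared over the 15 libraries, the 3 most like each subunit by Pearson r of log2 CPM were Plppr3 (0.99), Sfrp1 (0.98) and Zfp36l1 (0.98) for Fos, Nfil3 (0.97), Adamts3 (0.94) and Tbx18 (0.94) for Fosb, and Rassf6 (0.96), U90926 (0.95) and Ndst3 (0.94) for Fosl1. For the Jun genes they were Mamdc4 (0.90), Dele1 (0.90) and Tbx4 (0.89) for Jun, Per2 (0.94), Cebpb (0.92) and Mst1r (0.90) for Junb, and Scand1 (0.96), Vegfb (0.96) and Keap1 (0.96) for Jund. Fosl2 was most like Cdc42ep5 (0.91), Plod3 (0.90) and Ttc7 (0.90), and Atf3 like Arid5a (0.86), Gpt2 (0.86) and Gm3667 (0.81). Zfp36l1 encodes a protein that speeds the decay of short-lived mRNAs, and Nfil3 and Cebpb are bZIP genes.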

How the data were processed

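RNA was measured by poly(A) RNA-seq (TruSeq stranded, single-end) in 15 libraries, 3 MEF lines in each of 5 conditions. Per the labels and the methods, the authors trimmed reads with fastp 0.20.0 and quantified transcripts with kallisto 0.46.1 on GRCm38.p6. The deposited values are estimated counts and TPM per transcript. Both were summed per gene with GENCODE M21 (121104 of 121843 transcripts matched, and the 739 others, 0.236 to 0.327% of counts, were left out). M21 was chosen here by matching transcript identifiers, and the paper names a different GENCODE release.

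Estimated counts were rounded and analysed with edgeR 4.0.16 in R 4.3.3 (TMM, filterByExpr with a minimum count of 10 and total of 15, quasi-likelihood test, condition as the only term). CPM used TMM library sizes. Genes were called at a Benjamini-Hochberg adjusted p of at most 0.05 and a log2 fold change over 0.5. Alternatives were DESeq2 1.42.0, DESeq2 size factors in edgeR, no filter, length-scaled counts, fewer libraries, the MEF line as a block, and leaving out each library. The scripts were tested on simulated data. Replicate numbers name MEF lines and so pair the libraries. Deviations from the condition means correlated by 0.0737 on average within a line (−0.00381 to 0.237 over 30 pairs). The average between lines was −0.0368, which largely follows from the first value because deviations cancel within a condition. For each of the 15 libraries, the mean correlation with libraries of the other conditions was highest for its own line. P-values cover the spread between 3 lines with 1 culture each.

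The members and gene lists were chosen with earlier results of these data known. Named genes were the 8 subunits in every comparison, the 3 genes most like each (mean of at least 1 CPM), Myod1, and from each pathway list genes among the 3 called with the smallest p in a comparison. Promoter sequences came from RefSeq (GRCm38.p6), where 7 of 8 subunits matched.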

Additional observations from a re-analysis of the deposited data

How the results depend on the processing

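Of the recomputed log2 fold changes of the 8 subunits, 984 kept their direction and their side of the threshold, 20 lost a call, 19 gained one and 33 changed sign. Of the 8 subunits, 3 were called for +MyoD against MEFs, and 5 with the MEF line as a replicate block (Junb and Fosb added) and 3 to 6 when 1 library was left out. For F/R/C against +MyoD, 2 were called, 4 with the replicate block (Fos and Fosb added), 1 with length-scaled counts, 1 with only the 6 libraries compared and 1 to 2 when 1 library was left out. For F/R/C against MEFs 6 were called, and 4 to 6 when 1 library was left out. For SP and for CP against F/R/C the count of 0 became 2 (Fosb and Junb) in the fit of the 9 libraries with F/R/C and the replicate block, an alternative chosen after seeing the data, as was the fit of the 9 libraries with no block, and stayed at 0 to 0 when 1 library was left out. The replicate block changed no other call of a subunit in the fit of 15 libraries. In that fit Jund for CP against F/R/C changed sign to 0.052, and to 0.039 with 9 libraries and the block, and Jun for SP against CP changed sign to −0.0082 with length-scaled counts. The causes were not tested.

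When 1 library was left out, these log2 fold changes crossed 0. For +MyoD against MEFs Jun ran from −0.26 to 0.095. For F/R/C against +MyoD Junb ran from −0.092 to 1.11, Jund from −0.33 to 0.59. For F/R/C against MEFs Atf3 ran from −0.36 to 0.45. For SP against F/R/C Jun ran from −0.62 to 0.18, Junb from −1.08 to 0.071, Fos from −1.003 to 0.11, Fosl1 from −0.68 to 0.090, Fosl2 from −0.31 to 0.015. For CP against F/R/C Jun ran from −0.62 to 0.17, Jund from −0.23 to 0.34, Fos from −0.83 to 0.18, Atf3 from −0.024 to 0.19. For SP against CP Jun ran from −0.27 to 0.27, Junb from −0.43 to 0.47, Fos from −0.52 to 0.26, Fosb from −0.24 to 0.45.

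Counts over all genes moved by over 1.5 times as follows. For F/R/C against +MyoD, 3735 genes were called, and 2210 with only the 6 libraries compared. For SP against F/R/C, 0 genes were called, 3 with 6 libraries, 55 by DESeq2, 27 with 9 libraries, 424 with 9 libraries and the replicate block, and 0 to 6 when 1 library was left out. For CP against F/R/C, 7 genes were called, 47 with no filter, 37 with the replicate block, 2 with length-scaled counts, 91 with 6 libraries, 191 by DESeq2, 152 with 9 libraries, 590 with 9 libraries and the replicate block, and 0 to 79 when 1 library was left out. For SP against CP, 38 genes were called, 71 with 6 libraries, 92 by DESeq2, 71 with 9 libraries, 181 with 9 libraries and the replicate block, and 14 to 60 when 1 library was left out. The biological coefficient of variation over all libraries was 0.35.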
